A study of Mus musculus with 24 samples.

Results

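Cyp2d9, Cyp2d10, Cyp2d11, Cyp2d12, Cyp2d22 and Cyp2d26 were followed in kidneys of megabladder (mgb) mice. These 6 genes were chosen from the same arrays, by their lower levels in kidneys with more severe hydronephrosis, so the differences between grades are given as a description without a test. Each gene was read by 1 probe, and the 6 genes stand among 27971 genes or accessions that were measured above background. The Cyp2d cluster has 4 other measured members, Cyp2d13, Cyp2d34, Cyp2d37-ps and Cyp2d40, of which Cyp2d34 has a pair of probes, called A and B here.

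Total RNA from 24 whole kidneys was hybridized, 1 kidney per array, and all mice were male. The labels call the mice young adult, and by the study's methods they were taken shortly after weaning. The 6 control kidneys had the genotype mgb+/+, and the 18 others were mgb-/-, a transgene insertion mutant with an atonic bladder and congenital hydronephrosis. Ultrasound of the remaining parenchyma had graded 7 of the mgb-/- kidneys as mild, 5 as moderate and 6 as severe. The labels do not say which kidneys came from the same animal, so a p-value measures only the spread between these kidneys. A level below is the log2 of the spot intensity after subtraction of the array's 75th percentile, so 0 is that percentile, and levels of different probes cannot be compared with each other.

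Cyp2d genes encode cytochrome P450 enzymes, heme proteins of the endoplasmic reticulum that oxidize drugs, steroids and fatty acids with electrons passed on by P450 oxidoreductase. The mouse has a tandem cluster of these genes and pseudogenes where humans have the single functional drug-metabolizing gene CYP2D6, and Cyp2d22 is regarded as its closest mouse counterpart. Cyp2d9 is a male-biased testosterone hydroxylase of liver, where the pattern of growth hormone secretion acting through STAT5 controls it. Roles of Cyp2d10, Cyp2d11, Cyp2d12 and Cyp2d26 in the kidney are less defined.

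The promoters are shown because some of these genes are close copies of each other, while Cyp2d9 did not share the pattern of the others across kidneys. RefSeq (assembly GRCm38.p6) places the cluster on chromosome 15, and 4 of the 6 genes had a promoter entry. The 150 bases before each annotated start are printed in the direction of the gene, at chr15:82452227-82452376 on the plus strand for Cyp2d9, and on the minus strand at chr15:82407195-82407344 for Cyp2d10, chr15:82394023-82394172 for Cyp2d11 and chr15:82794246-82794395 for Cyp2d26. Capitals mark TATAAG (a variant of the box near many promoter starts) and CAAAGNNCA (the core of the sites that the nuclear receptor HNF4A prefers), on either strand.
Cyp2d9: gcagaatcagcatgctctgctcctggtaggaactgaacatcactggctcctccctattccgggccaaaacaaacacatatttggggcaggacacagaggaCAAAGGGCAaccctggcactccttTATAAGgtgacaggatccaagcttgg
Cyp2d10: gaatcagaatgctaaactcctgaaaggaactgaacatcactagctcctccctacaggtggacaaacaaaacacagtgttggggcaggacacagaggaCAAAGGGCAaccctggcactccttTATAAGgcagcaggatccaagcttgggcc
Cyp2d11: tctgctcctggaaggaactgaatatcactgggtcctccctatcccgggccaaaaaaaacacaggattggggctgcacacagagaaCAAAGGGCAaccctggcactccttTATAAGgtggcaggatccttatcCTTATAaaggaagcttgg
Cyp2d26: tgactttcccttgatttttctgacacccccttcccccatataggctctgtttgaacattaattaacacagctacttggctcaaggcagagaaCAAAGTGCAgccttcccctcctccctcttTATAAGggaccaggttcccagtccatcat
All 4 windows held CAAAGNNCA, 50 to 65 bases before the start, and TATAAG on the strand of the gene, 26 to 41 bases before it. Cyp2d11 had a second TATAAG on the other strand, 18 bases before the start. In the 250 bases before the start of 32851 RefSeq promoters, CAAAGNNCA matched 5.49% and TATAAG 6.65%. The STAT5-type letters TTCNNNGAA, in 7.02% of all promoters, had no match in the 250 bases of these 4 genes. Over those 250 bases, Cyp2d9 and Cyp2d11 shared 219 of 234 bases aligned without a gap, an identity of 93.6%. Cyp2d9 and Cyp2d10 were 85.4% identical, while Cyp2d26 was 65.6% to 69.3% identical to the other three. The letters were not particular to the chosen genes. Cyp2d40, which was not chosen, held CAAAGGGCA 113 and TATAAG 89 bases before its start. It was 83.3% to 84.6% identical to Cyp2d9, Cyp2d10 and Cyp2d11.

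The arrays lay on 3 slides of 8, and every slide held kidneys of all 4 groups. Between 55.6% and 70.8% of probes stood well above background on an array. Severe replicate 4 had the lowest of these shares and 660 outlier spots in the scanner output, against 102 to 261 on the other arrays, and its marked spots of Cyp2d12 and Cyp2d22 were dropped, so these genes have 5 severe values. The Y-linked gene Ddx3y was well above background in 24 of 24 kidneys and Xist in 0 of 24, which matches the male label. All 23 proximal tubule markers were measured, with a summed level (relative to the 75th percentile, linear scale) of 2688 to 3249 in control, 2240 to 2967 in mild, 2122 to 3721 in moderate and 790 to 3063 in severe kidneys. Severe replicate 5 held that lowest value.

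Across the groups, 5 of the 6 genes had their highest or near highest mean in mild kidneys and a lower mean in severe kidneys, and the sixth, Cyp2d9, ran otherwise. In Cyp2d10, Cyp2d11, Cyp2d12, Cyp2d22 and Cyp2d26, mild kidneys were above control by 0.49 to 1.44 on the log2 scale. Severe kidneys lay between -0.38 (Cyp2d22) and 0.63 (Cyp2d10) from the control mean in these 5 genes. For Cyp2d12 and for Cyp2d22, 4 of 5 severe values fell below every control. The fall with severity on which the genes were chosen was therefore a difference between mild and severe kidneys in 5 genes rather than a steady fall from control, and Cyp2d9 did not show it.

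**Figure D1:**
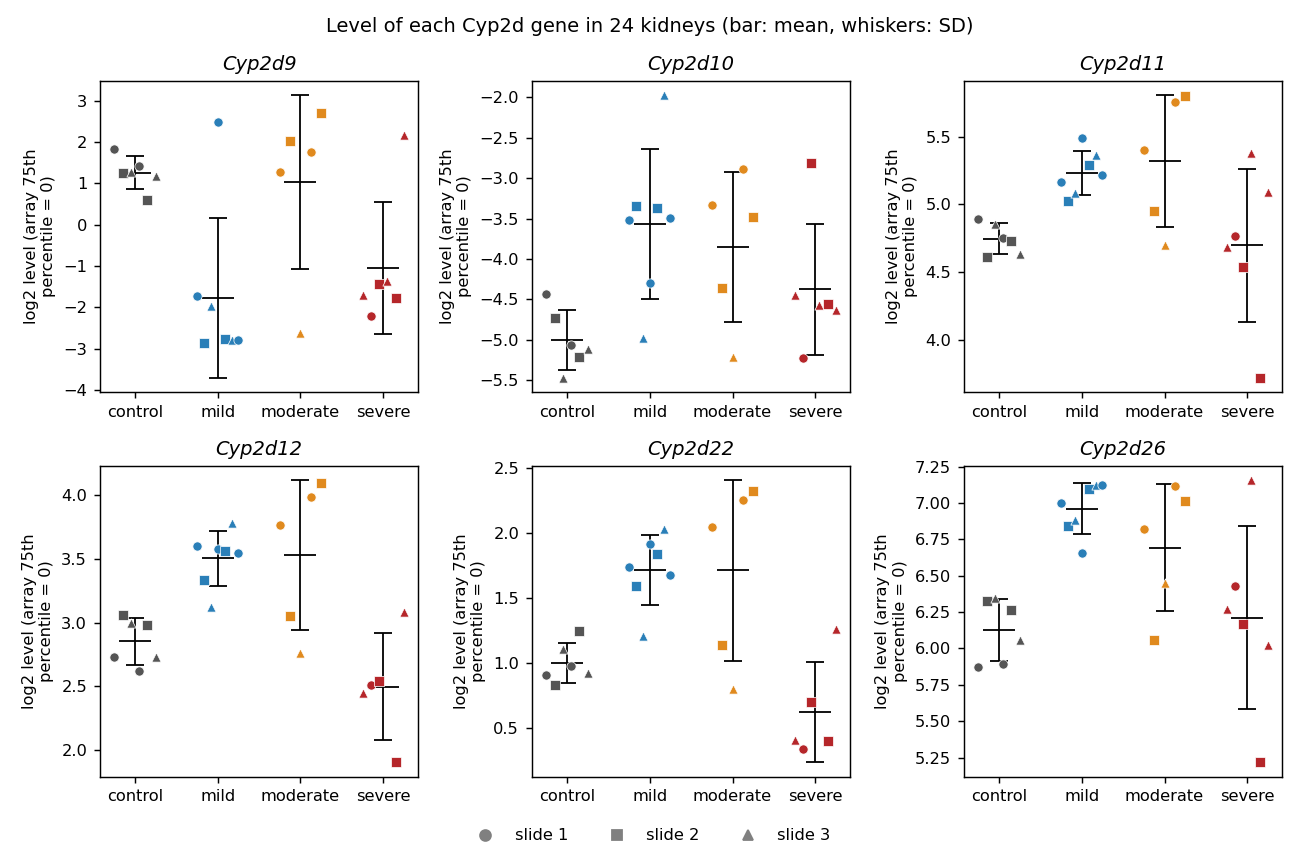
Levels of the 6 Cyp2d genes in each kidney (log2, array 75th percentile at 0) by group, with slides as symbols and the mean and SD as bars. For Cyp2d12 every mild kidney (3.12 or more) lies above every control (3.06 or less) and all 5 severe values (3.08 or less, severe replicate 4 dropped). Cyp2d9 splits into kidneys at 0.61 or more and at -1.36 or less.

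Cyp2d22 had control levels from 0.83 to 1.25 with a median of 0.95. Mild kidneys ranged from 1.20 over a median of 1.74 to 2.03, and 6 of 7 exceeded every control. The 5 moderate kidneys read 2.05, 1.14, 0.79, 2.25 and 2.32. That group spanned the ranges of mild and control kidneys, with moderate replicates 2 and 3 at the control level. The 5 severe values were 0.40, 0.33, 0.70, 0.40 and 1.26, of which 4 fell below every control kidney and severe replicate 6 was level with the highest control. The mean was 1.00 ± 0.15 (SD, n = 6) in control, 1.71 ± 0.27 (n = 7) in mild, 1.71 ± 0.70 (n = 5) in moderate and 0.62 ± 0.39 (n = 5) in severe kidneys. Severe minus mild came to -1.09 with an SE of 0.23.

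Cyp2d12 ordered the kidneys in a similar though not identical way, with a Spearman rho of 0.95 to Cyp2d22 over 23 kidneys. Its control levels ran from 2.62 over a median of 2.86 to 3.06, and its mild levels from 3.12 over 3.56 to 3.78. Moderate kidneys read 3.76, 3.05, 2.76, 3.98 and 4.09. Replicates 2 and 3 of the moderate group were again the low pair, inside the control range. The 5 severe values were 2.45, 2.51, 2.54, 1.91 and 3.08, which left no overlap between severe and mild kidneys. Group means were 2.85 ± 0.18 (SD, n = 6), 3.50 ± 0.21 (n = 7), 3.53 ± 0.59 (n = 5) and 2.50 ± 0.42 (n = 5), and severe minus mild was -1.00 with an SE of 0.21. With the marked spots of severe replicate 4 kept, that kidney would read 3.24 for Cyp2d12 and 0.16 for Cyp2d22, so the first would lie inside the mild range and the second below all other kidneys.

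Cyp2d26 had control levels of 5.88 to 6.35 with a median of 6.16, and mild levels of 6.66 to 7.12 with a median of 7.00. No mild kidney overlapped with control. Moderate kidneys read 6.82, 6.06, 6.45, 7.12 and 7.01, and severe kidneys ranged from 5.22 over a median of 6.22 to 7.16. The highest severe level belonged to severe replicate 4 and the lowest to severe replicate 5, the kidney with the low proximal tubule markers. Severe minus mild was -0.75 with an SE of 0.22, and -0.55 without severe replicate 5. The group means were 6.13 ± 0.21 (SD, n = 6), 6.96 ± 0.18 (n = 7), 6.69 ± 0.44 (n = 5) and 6.21 ± 0.63 (n = 6).

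Cyp2d11 ranged from 4.61 over a median of 4.74 to 4.89 in control and from 5.02 over 5.22 to 5.49 in mild kidneys. Moderate kidneys read 5.40, 4.95, 4.70, 5.76 and 5.80. Here, too, mild and control kidneys did not overlap, and the same pair of moderate kidneys was low. Severe levels ran from 3.72 in replicate 5 over a median of 4.73 to 5.38 in replicate 4, overlapping with all other groups. Means were 4.75 ± 0.11 (SD, n = 6), 5.23 ± 0.16 (n = 7), 5.32 ± 0.49 (n = 5) and 4.70 ± 0.57 (n = 6). Severe minus mild was -0.53 with an SE of 0.20, and -0.34 without severe replicate 5.

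Cyp2d10 was a dim probe, well above background in 23 of 24 kidneys. Its control levels ran from -5.47 over a median of -5.09 to -4.43, and its mild levels from -4.98 over -3.49 to -1.97. Moderate kidneys read -3.33, -4.36, -5.21, -2.89 and -3.48. Mild replicate 3 and moderate replicate 3 were the kidneys of these grades that reached into the control range. Severe kidneys ranged from -5.22 over a median of -4.57 to -2.81, with severe replicate 3 far above the other 5. The means were -5.00 ± 0.37 (SD, n = 6), -3.57 ± 0.93 (n = 7), -3.85 ± 0.93 (n = 5) and -4.37 ± 0.81 (n = 6), and severe minus mild was -0.81 with an SE of 0.42.

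Every mild kidney lay above every control kidney for 3 of the 6 genes, Cyp2d11, Cyp2d12 and Cyp2d26, and for 2.77% of all 38848 probes. Every severe kidney with a value lay below every mild kidney for 1 of the 6, Cyp2d12, and for 0.373% of probes. Cyp2d12 had 5 severe values there, without the dropped spot of severe replicate 4. Nothing is read from these counts, since the grade levels chose the genes. Within the slides, severe minus mild was below 0 on all 3 for each of Cyp2d10, Cyp2d11, Cyp2d12, Cyp2d22 and Cyp2d26, for example -1.44, -1.17 and -0.79 for Cyp2d22 and -0.50, -1.28 and -0.52 for Cyp2d26. The first of these slides held 1 severe kidney.

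**Figure D2:**
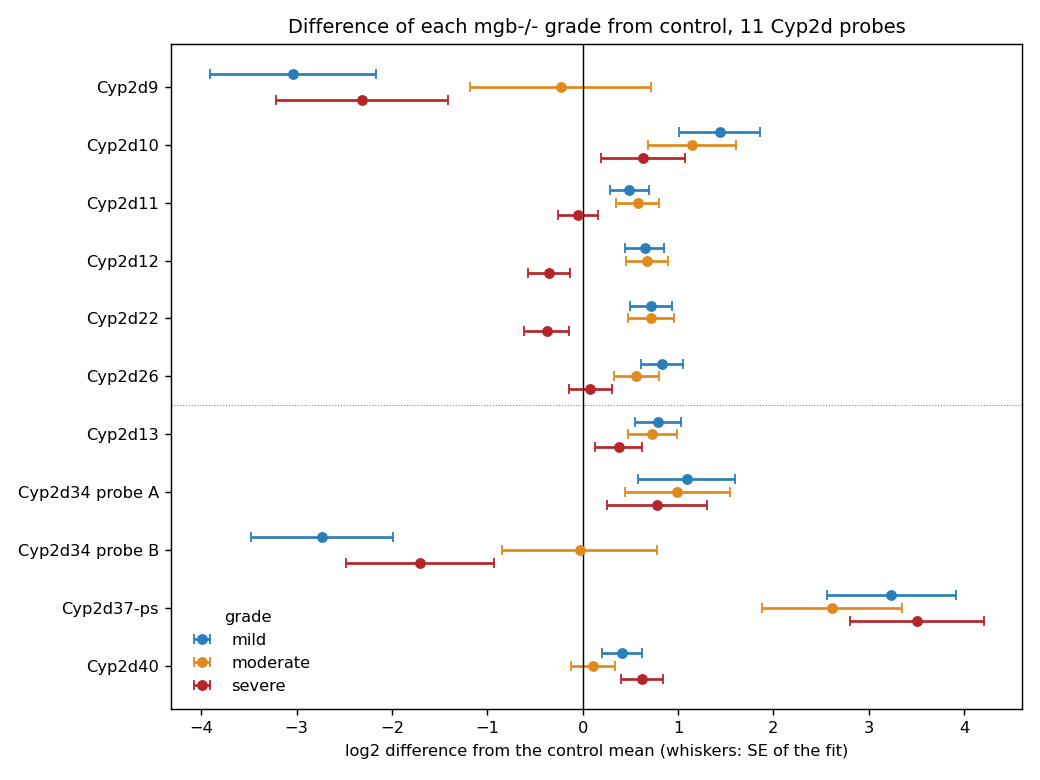
Mean of each mgb-/- grade minus the control mean (log2, whiskers are SE) for 11 Cyp2d probes, the 6 chosen genes above the dotted line. Cyp2d12 and Cyp2d22 lie at 0.65 and 0.72 in mild and at -0.35 and -0.38 in severe kidneys, whereas Cyp2d9 and Cyp2d34 probe B lie far below control in mild kidneys at -3.04 and -2.73.

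Markers of other cell types moved between the grades as well. Of the 23 proximal tubule markers, 22 were lower on average in the severe grade than in the mild, the median difference being -0.43 against -0.01 over all probes. Their median in mild kidneys was -0.09 from control, while the 5 Cyp2d genes stood at 0.49 to 1.44. Urothelial markers went the other way, with a summed level of 7.06 to 73.1 in mild and 84.4 to 287 in severe kidneys. Hepatocyte markers had a median of 0.92 in mild kidneys against control and of -0.64 in severe against mild, but they did not move as 1 set. In the severe grade 4 of 7 were lower than in the mild, while Ttr (0.93), Serpina1a (0.64) and Fgb (0.19) were higher. Apob stood at -1.35 in mild against control, and the list median in severe against control was 0.69. Alb, serum albumin, had the largest differences of this list, 2.13 in mild against control and -3.34 in severe against mild. The summed level of the 7 measured was 3.89 to 15.1 in control, 4.09 to 25.5 in mild, 4.61 to 30.5 in moderate and 11.6 to 24.1 in severe kidneys. That sum leans on Serpina1a, whose probe had a control mean of 2.70 (log2), with Apob next at -1.315. Cyp1a2, the eighth of that list, was well above background on 2 arrays. Loop and distal nephron markers had medians of 0.43 and -0.21 in these comparisons, with 9 of 9 lower in the severe grade. Of the 7 adrenal cortex markers 6 were measured, and Cyp11b2 was not above background on enough arrays. Their summed level was 0.318 to 0.608 in control, 0.606 to 198 in mild, 0.485 to 190 in moderate and 0.517 to 0.965 in severe kidneys, the extremes being mild replicate 4 at 198 and moderate replicate 1 at 190. Without these 2 kidneys mild minus control was 0.68 for Cyp2d22, 0.64 for Cyp2d12, 0.88 for Cyp2d26, 0.44 for Cyp2d11 and 1.56 for Cyp2d10. That step did not clear adrenal markers from the grades. Mild replicates 2, 5, 6 and 7 summed to 4.03, 2.09, 4.52 and 1.19, and moderate replicate 3 to 4.00, all above every control. The part of tubule, urothelial, hepatocyte or adrenal transcripts in the Cyp2d levels was not tested. In whole kidney RNA, fewer cells of a type and less RNA per cell cannot be told apart.

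**Figure D3:**
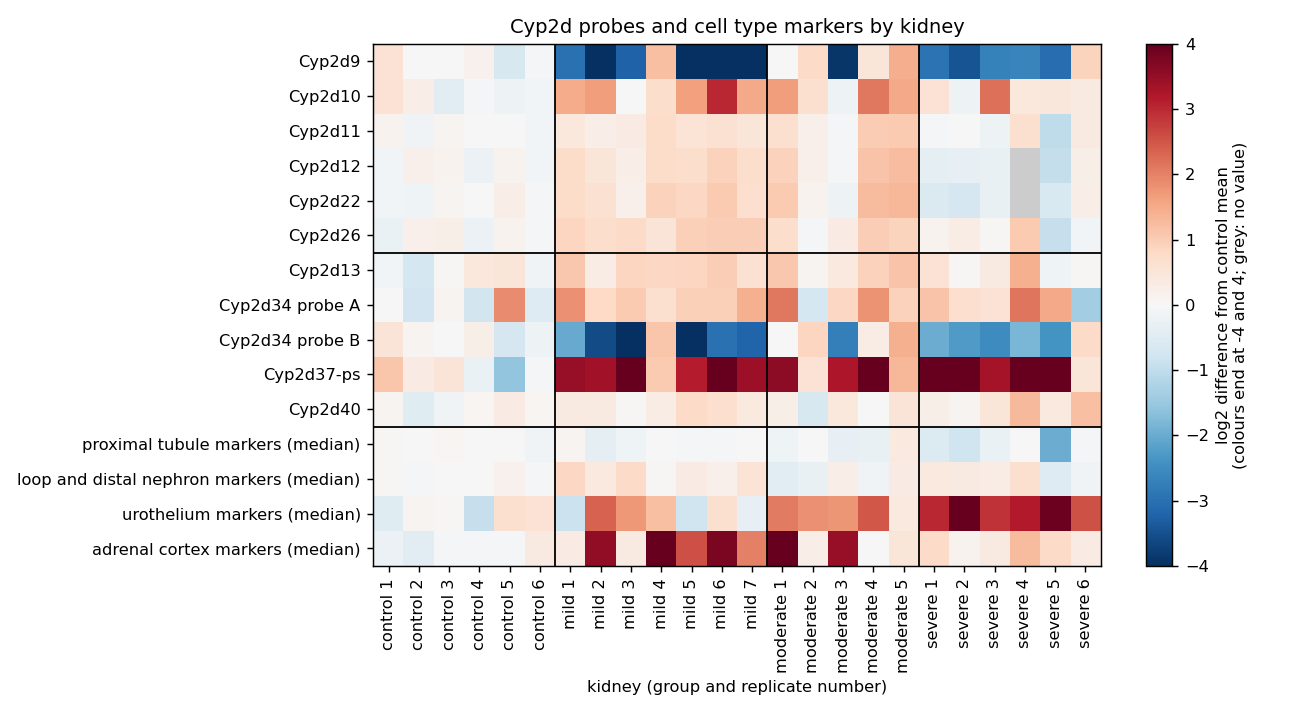
Each kidney's level minus the control mean (log2, colours end at -4 and 4) for 11 Cyp2d probes and the median of 4 marker lists. Moderate replicates 2 and 3 are pale for Cyp2d12 and Cyp2d22 beside darker replicates 1, 4 and 5, and severe replicate 5 is low for Cyp2d11 and Cyp2d26 together with the proximal tubule markers.

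Cyp2d9, the male-biased steroid hydroxylase, showed no grade order but a split among mgb-/- kidneys. Control kidneys read 0.61 to 1.84 with a median of 1.26. Mild kidneys ran from -2.86 over a median of -2.77 to 2.48, where 6 of 7 lay below every control and only mild replicate 4 did not. Moderate kidneys read 1.28, 2.03, -2.62, 1.76 and 2.70, so that 4 of 5 stood within or above the control range. Severe kidneys ran from -2.20 over a median of -1.56 to 2.17, with 5 of 6 below every control and severe replicate 6 above. In all, 12 of 24 kidneys lay at 0.61 or more and 12 at -1.36 or less, with none between. The low kidneys were all mgb-/-, 6 mild, 1 moderate and 5 severe, and the split was seen only after the values were known. Group means were 1.26 ± 0.40 (SD, n = 6), -1.77 ± 1.93 (n = 7), 1.03 ± 2.10 (n = 5) and -1.05 ± 1.60 (n = 6), and severe minus mild was 0.73 with an SE of 0.87. Mild replicate 4 and moderate replicate 1, the kidneys richest in adrenal markers, both had high Cyp2d9. Without this pair mild minus control was -3.74 and severe minus mild 1.43. Whether adrenal RNA had a part in their Cyp2d9 level was not tested.

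The other Cyp2d genes showed which probes moved alike. Cyp2d34 probe B read -3.90 to -1.81 in the 12 kidneys with high Cyp2d9 and -7.66 to -5.07 in the 12 with low Cyp2d9, where it was well above background in only 2. Within the 12 high kidneys its Pearson r with Cyp2d9 was 0.99 (Spearman rho 0.97, r 0.97 without the 2 farthest kidneys). Cyp2d34 probe A, annotated to the same gene, did not share this pattern and read -6.37 to -2.88 in the high and -4.38 to -2.83 in the low kidneys. Both probes of Cyp2d34 had opposite changes in mgb-/- kidneys, 0.96 (SE 0.42) for A and -1.64 (SE 0.75) for B, and neither passed the test. Cyp2d37-ps, a pseudogene, read -2.82 to -1.41 in the low kidneys and -7.56 to -1.61 in the high ones. Which transcripts each probe binds was not tested, and a probe that also binds a paralog would carry that paralog's level, so the values of Cyp2d34 and of the other close copies are uncertain.

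**Figure D4:**
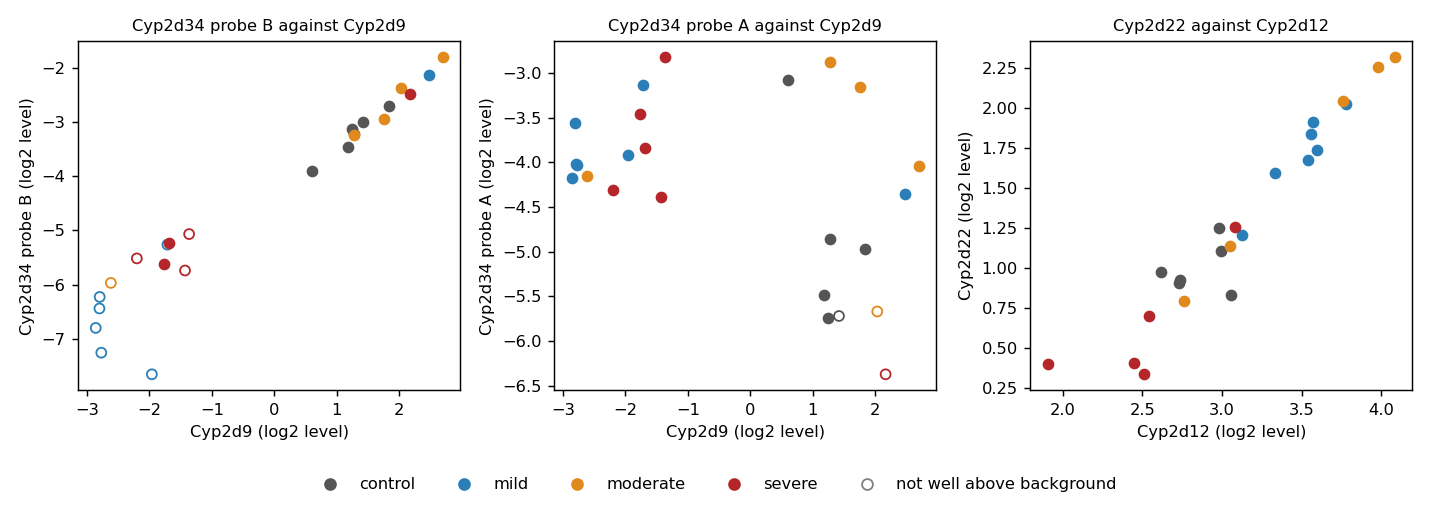
Levels of pairs of Cyp2d probes in each kidney (log2, array 75th percentile at 0), with open points where a probe was not well above background. Cyp2d34 probe B tracks Cyp2d9 along 1 line in the 12 high kidneys, probe A does not, and Cyp2d22 rises with Cyp2d12 over 23 kidneys (r = 0.96).

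Cyp2d12 and Cyp2d22, which lie apart in the cluster, were the pair of chosen genes most alike, with r = 0.96 (rho 0.95) over 23 kidneys, 0.97 without the 2 farthest kidneys and 0.90 after each group's mean was taken out. Cyp2d11 and Cyp2d12 had r = 0.93 (rho 0.89), or 0.86 within groups. Cyp2d12 and Cyp2d26 had r = 0.86 (rho 0.78), or 0.70 within groups. Cyp2d10 was less like the others, with r between 0.48 and 0.64 to Cyp2d11, Cyp2d12, Cyp2d22 and Cyp2d26. All points of a pair share their array and its scaling, and probes of close copies may share transcripts.

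The comparison of all mgb-/- with control kidneys asks whether the genotype as a whole moved these genes, and each kidney counts once in its mean, whatever its grade. The spread between the grades enters the error of that mean. By limma with Benjamini-Hochberg adjustment over 38848 probes, 0 of the 6 genes were called lower, against 1.18% of all probes, and 0 were called higher, against 1.62%, where a call needed a 2-fold change and an adjusted p under 0.05. Without adjustment, a p under 0.05 was reached by 4549 probes as higher and 6167 as lower. Cyp2d10 stood at 1.09 (SE 0.37, adjusted p = 0.057), with 16 of 18 mgb-/- kidneys above the control mean. Cyp2d26 stood at 0.51 (SE 0.22, adjusted p = 0.13) with 15 of 18 above. Cyp2d9 stood at -2.01 (SE 0.85, adjusted p = 0.12) with 12 of 18 below. The unadjusted p of these 3 was under 0.05. Cyp2d22 at 0.39 (SE 0.27), Cyp2d12 at 0.36 (SE 0.25) and Cyp2d11 at 0.33 (SE 0.20) had adjusted p-values of 0.37, 0.37 and 0.29. The median over the 6 genes was 0.38, against 0.01 over all probes. Cyp2d10 had an adjusted p under 0.05 when mild replicate 3, moderate replicate 3 or severe replicate 2, 5 or 6 was left out (0.042 to 0.0496), and Cyp2d26 had one without severe replicate 5 (0.028). With array quality weights 5 genes had an adjusted p under 0.05, namely Cyp2d9 at -2.54 (adjusted p = 0.0070), Cyp2d10 at 1.34 (0.0032), Cyp2d11 at 0.36 (0.041), Cyp2d12 at 0.49 (0.039) and Cyp2d26 at 0.66 (0.0021).

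Among the other Cyp2d genes, Cyp2d37-ps was 3.15 higher in mgb-/- kidneys (SE 0.57, adjusted p = 0.0019). It read -7.56 to -4.88 in control kidneys, where it was well above background in 3 of 6. With the other control values set at the lowest signal well above background on their array, the change was 6.44-fold. In mgb-/- kidneys Cyp2d37-ps ran from -5.49 over a median of -2.51 to -1.41, with 15 of 18 above every control. The mgb-/- kidneys that stayed in the control range were mild replicate 4, moderate replicate 2 and severe replicate 6. These 3 had high Cyp2d9, but so did moderate replicates 1, 4 and 5, which lay above every control at -2.41, -1.61 and -4.66. Cyp2d13 was 0.64 higher (SE 0.21, adjusted p = 0.048), which is short of a 2-fold change, and Cyp2d40 stood at 0.40 (SE 0.19, adjusted p = 0.17).

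Beyond Cyp2d, the Cyp1 to Cyp4 families had 51 measured genes, of which 3 rose and 5 fell, with a median change of 0.35. Cyp4a12a and Cyp4a12b, near-identical male-biased fatty acid hydroxylases of kidney whose probes may share transcripts, fell by 3.51 (SE 0.85, adjusted p = 0.012) and 3.48 (SE 0.85, adjusted p = 0.012). Cyp2j13, an arachidonic acid epoxygenase family member, fell by 3.16 (SE 0.77, adjusted p = 0.012). Cyp4a14, a fatty acid hydroxylase induced through PPARA, rose by 2.79 (SE 0.44, adjusted p = 0.00086), as did Cyp1a1, the dioxin-inducible aryl hydrocarbon hydroxylase, by 1.33 (SE 0.41, adjusted p = 0.036). The third gene that rose, Cyp3a59 (adjusted p = 0.031), was well above background in 0 of 6 control and 7 of 18 mgb-/- kidneys. With its control values set at the lowest signal well above background on their array, the change was 1.06-fold. Set beside the split of Cyp2d9, Cyp4a12a read -0.79 to 3.28 in the 12 high kidneys and -3.22 to -1.90 in the 12 low kidneys, without overlap. This comparison was chosen after the values were seen. The same holds for Prlr, the prolactin receptor, at 0.56 to 3.24 in the high and 2.60 to 5.02 in the low kidneys, with 1 low kidney inside the high range. The high kidneys include all 6 controls and the low ones none, and these genes were called against control, so genotype enters the comparison. In the high mgb-/- kidneys alone Cyp4a12a read -0.79 to 3.28 and Prlr 0.70 to 3.24. Other called genes overlapped more. Of the 12 low kidneys, 7 lay inside the high range for Cyp2j13, 11 for Cyp4a14, 9 for Slc7a13, 7 for Slc22a7, 10 for Cpox, 7 for Ephx2 and 6 for Cebpb, of which the genes outside the P450 families are described with their lists.

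**Figure D5:**
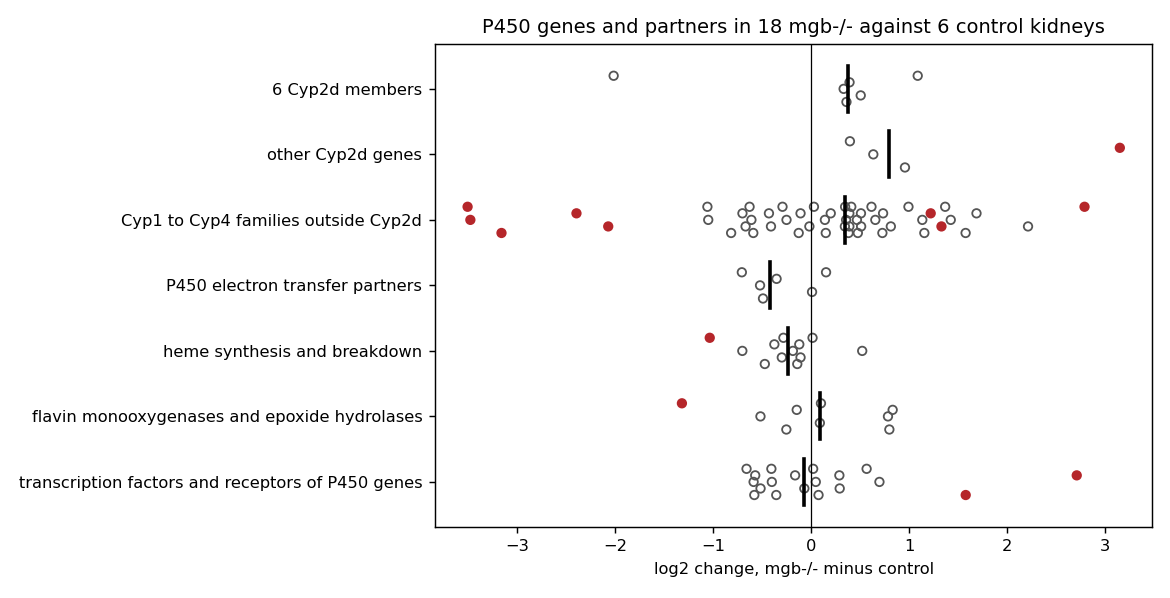
Log2 change in mgb-/- against control kidneys of the 6 chosen Cyp2d genes and of genes in 6 lists, 1 point per gene, filled red where the adjusted p was under 0.05 with a 2-fold change, with a bar at each median. The Cyp2d members hold no red point and their median is 0.38, while Cyp1 to Cyp4 genes have 8.

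The lists of electron transfer and of heme genes had changes below 0 in 4 of 6 and 10 of 12 genes. Among all 38848 probes 20147 stood above 0, so 4 of 6 is not far from the share over all probes. Of the 6 electron transfer partners 0 were called in either direction, with a median of -0.42, and Por, the oxidoreductase that feeds every microsomal P450, stood at -0.71 (SE 0.17, adjusted p = 0.010), short of 2-fold but below the control mean in 18 of 18 kidneys. Of 12 genes of heme synthesis and breakdown 1 fell and 0 rose, with a median of -0.23, and the gene called was Cpox, coproporphyrinogen oxidase, which fell by 1.03 (SE 0.29, adjusted p = 0.025). Of 9 flavin monooxygenases, epoxide hydrolases and aldehyde oxidases 1 fell, namely Ephx2, the soluble epoxide hydrolase, by 1.32 (SE 0.30, adjusted p = 0.0086), with a list median of 0.09. Of 19 transcription factors and receptors that act on P450 genes 2 rose and 0 fell, with a median of -0.07. The risers were Cebpb, a bZIP factor of the acute phase and of adipose and liver genes, at 1.58 (SE 0.20, adjusted p = 7.3e-05) and Prlr at 2.71 (SE 0.58, adjusted p = 0.0063). Hnf4a, the factor whose sites the marked promoter letters resemble, stood at -0.59 (SE 0.55, adjusted p = 0.53). In 5 of 6 severe kidneys it lay below every control, and severe replicate 4 read 1.41 against 5.61 to 7.16 in the others. Stat5b stood at -0.07 (SE 0.10, adjusted p = 0.71).

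The cell type lists gave the following counts in the same test. Of 23 proximal tubule markers 2 fell, Slc7a13 by 2.81 (SE 0.76, adjusted p = 0.020) and Slc22a7 by 2.28 (SE 0.52, adjusted p = 0.0082), and 0 rose, with a median of -0.27. Of 12 urothelial markers 5 rose, among them Krt20 by 2.75 (SE 0.72, adjusted p = 0.017), Krt19 by 2.34 (SE 0.64, adjusted p = 0.021) and Grhl3 by 2.15 (SE 0.61, adjusted p = 0.025), with a median of 1.85. Of 7 measured hepatocyte markers 1 fell, Apob by 1.41 (SE 0.45, adjusted p = 0.044), while 6 of 7 stood above 0 and the list median was 0.56. No gene was called among 9 loop and distal nephron, 9 leukocyte, 7 fibroblast and 6 adrenal cortex markers, with medians of 0.16, 0.04, 0.52 and 2.08.

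Outside the Cyp2d cluster, the genes whose levels were most like each member over the kidneys were sought among 13403 named genes well above background on every array. For Cyp2d9 they were Ftcd, a folate and histidine enzyme, Tlcd4 and Oplah, the oxoprolinase of glutathione turnover. Since Cyp2d9 splits into separate clusters, only r within them is given. For Ftcd it was -0.01 (rho 0.13) in the 12 high and 0.56 (rho 0.60) in the 12 low kidneys, so the likeness lies in the split itself, with Ftcd at 0.88 to 1.55 in the high and -1.30 to 0.01 in the low kidneys. For Cyp2d22 the genes were Tamm41 (r = 0.91, rho 0.87), Psmd9 (r = 0.91, rho 0.87) and Fbp2 (r = 0.90, rho 0.90) over 23 kidneys. For Cyp2d12 they were Psmd9 (r = 0.92, rho 0.86), Shmt1 (r = 0.92, rho 0.91) and the proximal tubule lactate transporter Slc5a12 (r = 0.91, rho 0.88). For Cyp2d26 they were the mitochondrial thiolase Acaa2 (r = 0.93, rho 0.91), Tm7sf2 (r = 0.92, rho 0.89) and Psmd9 (r = 0.92, rho 0.83) over 24 kidneys. For Cyp2d11 they were the retinol saturase Retsat (r = 0.94, rho 0.93), Gjb1 (r = 0.90, rho 0.87) and Lyplal1 (r = 0.89, rho 0.78). For Cyp2d10 they were the fatty acid binding protein Fabp1 (r = 0.89, rho 0.79), Odf2 (r = 0.80, rho 0.75) and Cyp2c70 (r = 0.78, rho 0.71). Without the 2 farthest kidneys these r ranged from 0.67 to 0.92 for the 5 genes other than Cyp2d9.

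The genes beside the cluster gave no call. The 5 measured genes on either side of it in RefSeq order had changes of -0.30 to 0.28 in mgb-/- kidneys, with 0 of 10 at an adjusted p under 0.05 by limma, and severe minus mild differences of -0.25 to 0.60.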

How the data were processed

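The authors deposited the scanner output of 24 single-dye arrays, made per the labels with Agilent Feature Extraction 10.10, whose processed signal is an intensity after background subtraction, not normalized between arrays. They also deposited intensities normalized between arrays by a method not given in the sources used here. No column of sample values was left unassigned. Log2 of the processed intensity minus the array's 75th percentile was used. Outlier spots were left out, spots of a probe were averaged, and a probe entered if 5 or more arrays flagged it well above background (38848 of 55681). No spot was saturated, and precision is limited by the number of arrays. RefSeq accessions named 26762 probes, and 28919 kept their accession.

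Groups came from the sample titles. The comparison of mgb-/- with control kidneys used limma 3.58.1 in R 4.3.3 with 2 groups over all probes, adjusted by Benjamini-Hochberg, and the grades were fitted with 4 groups. A list took the probe with the highest mean for each gene. Named genes were the 6 members, every other measured Cyp2d gene, at most 3 called genes per list and direction, and the 3 genes outside Cyp2d with the highest Pearson r to each member. Alternatives were quantile and median scaling, normexp with an offset of 50, the authors' table, other filters and thresholds, 1 probe per gene, slide or replicate number as a block, array weights, only the compared groups and each kidney left out. Normexp used the median signal, since a mean signal is not in these files. Keeping outlier spots, and leaving out kidneys by their markers, were chosen after the data were seen. The members, lists and tests were chosen with earlier results of these data known. The fit of mgb-/- against control was run on simulated data with independent noise, and the fit with 4 groups was not. Promoters were aligned with Biopython 1.88, and figures drawn with matplotlib 3.10.9 in Python 3.11.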

Additional observations from a re-analysis of the deposited data

Results flagged for a closer look

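In 8 of 44 groups of kidneys (11 Cyp2d probes, 4 groups each) a single kidney lay far from the others by Dixon's test, where chance flags about 1 in 20 groups. For Cyp2d9 these were mild replicate 4 at a log2 level of 2.48, with the next kidney at -1.71, severe replicate 6 at 2.17, with the next at -1.36, and moderate replicate 3 at -2.62, with the next at 1.28. Cyp2d34 probe B gave severe replicate 6 at -2.48, with the next at -5.07. For Cyp2d37-ps they were mild replicate 4 at -4.93, with the next at -2.82, and severe replicate 6 at -5.49, with the next at -2.66. Mild replicate 4 and severe replicate 6 thus stood apart in opposite directions for Cyp2d9 and Cyp2d37-ps. Cyp2d10 gave severe replicate 3 at -2.81, with the next at -4.44. Cyp2d34 probe A gave control replicate 5 at -3.08, with the next at -4.86.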

How the results depend on the processing

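Against control, all 6 genes kept the sign of their change in every alternative run, and Cyp2d22 passed in none (adjusted p 0.066 to 0.63). Of the 6, 0 were called lower except with array quality weights (1, Cyp2d9). Of the 6, 0 were called higher except for Cyp2d10 with array quality weights, at an adjusted p under 0.1, or without mild replicate 3, moderate replicate 3 or severe replicate 2, 5 or 6. Cyp2d26 also passed an adjusted p of 0.05 with quantile normalization (0.63, adjusted p = 0.0497), as did Cyp2d10 with normexp (0.54, adjusted p = 0.044). The 1090 probes called (630 higher, 460 lower) became 537 with normexp (276 and 261), 593 with the authors' table (294 and 299) and 4540 without a fold minimum. They split into 494 and 529 with quantile normalization and 426 and 711 with median scaling, which moves the median of all probes to -0.14. Leaving out 1 kidney gave 690 (without control replicate 3) to 1376.

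Between severe and mild kidneys the 144 probes called became 0 when only these groups were fitted (limma without adjustment gave 1595 higher and 1621 lower probes at p under 0.05). Leaving out 1 kidney gave 56 (without severe replicate 2) to 214. Calls of the 6 genes in this comparison are not given, since it chose them. The sign of each member's severe minus mild difference held in every alternative, though that of Cyp2d9 was 0.08 without severe replicate 6. The causes were not tested.

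With the replicate number as a block, 58 probes were called between severe and mild kidneys and 788 against control. The numbers pair no kidneys in the labels, and deviations of same-numbered kidneys had a median correlation of 0.01 over 33 pairs.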
